A study of Mus musculus with 10 samples.

Results

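The chemokine genes described here are 46 of the 17919 genes measured in fetal mouse lung, 30 ligands and 16 receptors. They were picked by symbol, under a rule set with earlier results of these data known. A ligand is a Ccl, Cxcl, Cx3cl or Xcl gene with a number, and a receptor is a Ccr, Cxcr, Cx3cr, Xcr or Ackr gene with a number. Each gene is represented by a probe set that carries 1 gene symbol, the one with the highest mean over the 10 lungs. The GRCm38.p6 gene table holds 62 protein-coding genes of these names, and 45 of them are among the members. The remaining member, Cxcl11, is listed there as a transcribed pseudogene. Another 6 genes (Ccl19, Ccl21a, Ccl21b, Ccl21c, Ccl21d and Ccl27b) were read only by probe sets shared with other gene names, and 11 genes were not analysed here (among them Cxcl2, Ccl8, Ccl12 and Ackr1). All values are log2 probe set levels. A mean under 6.3, which is the 20th percentile of all gene values, marks a low row, and 19 of the 46 members are low by this mark (41.3%, against 19.9% of all genes).

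The study profiled whole lungs at E18.5, late in mouse gestation, with 1 Affymetrix array per lung. The knockout lungs (n = 5) carried the genotype Shhcre:Hdac3fl/fl, where Cre driven from the Shh locus, which lung epithelium expresses, deletes the floxed alleles of Hdac3, a histone deacetylase of the NCoR/SMRT corepressor complexes. The control lungs (n = 5) are labelled Shhcre control. Both groups were on a mixed C57BL/6 and 129X1,129S6 background. All embryos came from Hdac3 fl/fl mothers and Hdac3 fl/+ Shh-Cre fathers, so a Cre-carrying control of this cross would itself be Hdac3 fl/+, although the label does not give its Hdac3 alleles. Mesenchymal, vascular and blood cells keep Hdac3 and contribute to every value. The question behind the comparison is which genes depend on epithelial Hdac3 in the maturing lung. AT2 cell markers, which mark a part of the lung alveolar epithelium, were high in every lung (mean of 9 markers from 11.84 to 12.10 in knockout lungs and from 11.92 to 12.03 in control lungs).

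Chemokines are small secreted proteins that steer migrating cells, above all leukocytes, along concentration gradients. They bind G protein-coupled receptors, and a family of atypical receptors removes them without such signalling. In the lung, epithelium, endothelium and macrophages make ligands that call in neutrophils and monocytes, while Cxcl12 with its receptors Cxcr4 and Ackr3 serves development and the traffic of blood progenitors. In a whole lung, fewer cells of a type and less RNA per cell cannot be told apart.

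Hdac3 had levels of 10.57, 10.54, 10.61, 10.34 and 10.43 in knockout lungs, against 10.80, 10.90, 10.80, 10.67 and 10.90 in control lungs. The knockout level was 80.4% of the control level, a log2 change of -0.31 ± 0.07 (SE, limma adjusted p = 0.0203). The groups did not overlap. Leaving out control 2 (adjusted p = 0.0526) or control 5 (adjusted p = 0.0545) ended the call.

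The promoters of 3 Cxcl genes that lie side by side on chromosome 5 are shown because one of them was called and its neighbours were not. Cxcl3 was called higher in knockout lungs, Cxcl15 lies next to it, and Cxcl1 lies next to Cxcl15. The sequences are RefSeq's for GRCm38.p6, all on the plus strand, from 250 bases before to 50 bases after the start of the gene. They are Cxcl3 at chr5:90785851-90786150, Cxcl15 at chr5:90794284-90794583 and Cxcl1 at chr5:90890995-90891294. Capitals mark matches to an NF-kB type motif (GGGA, then 2 bases of any kind, then TTCC), searched on both strands together with an AP-1 type motif, TGANTCA, and the nuclear receptor core motif AGGTCA.
Cxcl3: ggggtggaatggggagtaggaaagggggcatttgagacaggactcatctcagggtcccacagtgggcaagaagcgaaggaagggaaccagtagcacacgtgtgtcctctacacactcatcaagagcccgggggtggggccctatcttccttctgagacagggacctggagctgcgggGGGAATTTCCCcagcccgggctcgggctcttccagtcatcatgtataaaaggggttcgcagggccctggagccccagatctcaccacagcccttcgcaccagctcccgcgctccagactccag
Cxcl15: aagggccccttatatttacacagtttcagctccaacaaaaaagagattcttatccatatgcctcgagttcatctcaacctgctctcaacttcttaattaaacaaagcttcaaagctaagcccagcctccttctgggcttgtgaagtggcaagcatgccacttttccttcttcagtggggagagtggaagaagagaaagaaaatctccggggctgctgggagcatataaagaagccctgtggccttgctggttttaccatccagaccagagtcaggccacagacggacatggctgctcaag
Cxcl1: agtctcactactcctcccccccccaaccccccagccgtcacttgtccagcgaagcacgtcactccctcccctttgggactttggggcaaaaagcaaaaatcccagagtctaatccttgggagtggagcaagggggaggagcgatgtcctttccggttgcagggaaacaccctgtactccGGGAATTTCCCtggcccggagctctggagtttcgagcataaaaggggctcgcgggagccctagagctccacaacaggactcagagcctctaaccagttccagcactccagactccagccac
Cxcl3 and Cxcl1 hold the same NF-kB type match, which begins 73 bases before the start of Cxcl3 and 71 bases before that of Cxcl1. It matches on both strands, and these matches overlap in all but their outermost base. None of the motifs was found in these 300 bases of Cxcl15. Promoters were given for 33 of the 46 members. The NF-kB type motif was found in 4 of these genes (Cxcl3, Cxcl1, Cxcl10 and Ccl1) and in 1.47% of all 32851 promoters. The AP-1 type motif was found in 5 of the 33 genes and in 7.81% of all promoters, and the nuclear receptor core in 12 of the 33 and in 16.3% of all promoters. A gene with several promoters counted once if any of them matched. These matches describe letters only, and binding to them was not measured.

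Cxcl3, a neutrophil chemokine, was the one member called, and all 5 of its control values lay under 6.3, so the size of its change is uncertain. By limma with Benjamini-Hochberg adjustment over all genes, 1 of 46 members was called, and it was higher. This is 2.17% of the members, while 3.12% of all genes were called, 1.54% higher and 1.58% lower. Limma called 0 of the 27 members with a mean of 6.3 or more (6 had an unadjusted p under 0.05), while 3.57% of all such genes were. The median log2 change of the members was 0.02, against 0.00 over all genes. At an unadjusted p under 0.05 there were 7 members (15.2%), 6 higher and 1 lower. Of all genes 13.5% reached that mark, 6.84% higher and 6.71% lower. The 39 other members had log2 changes from -0.17 to 0.24, and their 95% intervals lay within -0.42 and 0.55. The lungs carry replicate numbers 1 to 5 in both groups, and no label gives pairs. Same-numbered lungs correlated at 0.154 to 0.485 in their deviations from the group means, and other pairs at up to 0.33. With the replicate number as a block 5 members were called (10.9%, against 4.72% of all genes, 2.28% higher and 2.44% lower), and 4 of the 27 with a mean of 6.3 or more (5.39% of all such genes). The 4 higher ones were Cxcl3, Cxcl15, Cxcl16 and Ccl2, and the lower one was Ccr2. The groups did not overlap for 1 member, Cxcl3 (2.17%, against 5.11% of all genes, and 2.44% with all knockout lungs higher). With lungs 1 to 3 against lungs 4 and 5 as a block 2 members were called, Cxcl3 and Ccr2 (5.08% of all genes), and with lungs 1 to 3 alone 2, Cxcl3 and Cxcl16 (2.5% of all genes). Without knockout 5, 4 members were called, Cxcl3, Cxcl15, Cxcl16 and Ccl3 (3.9% of all genes), and with all values under 6.3 raised to 6.3 there were 0 (2.54% of all genes, and 6 members at an unadjusted p under 0.05).

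**Figure D1:**
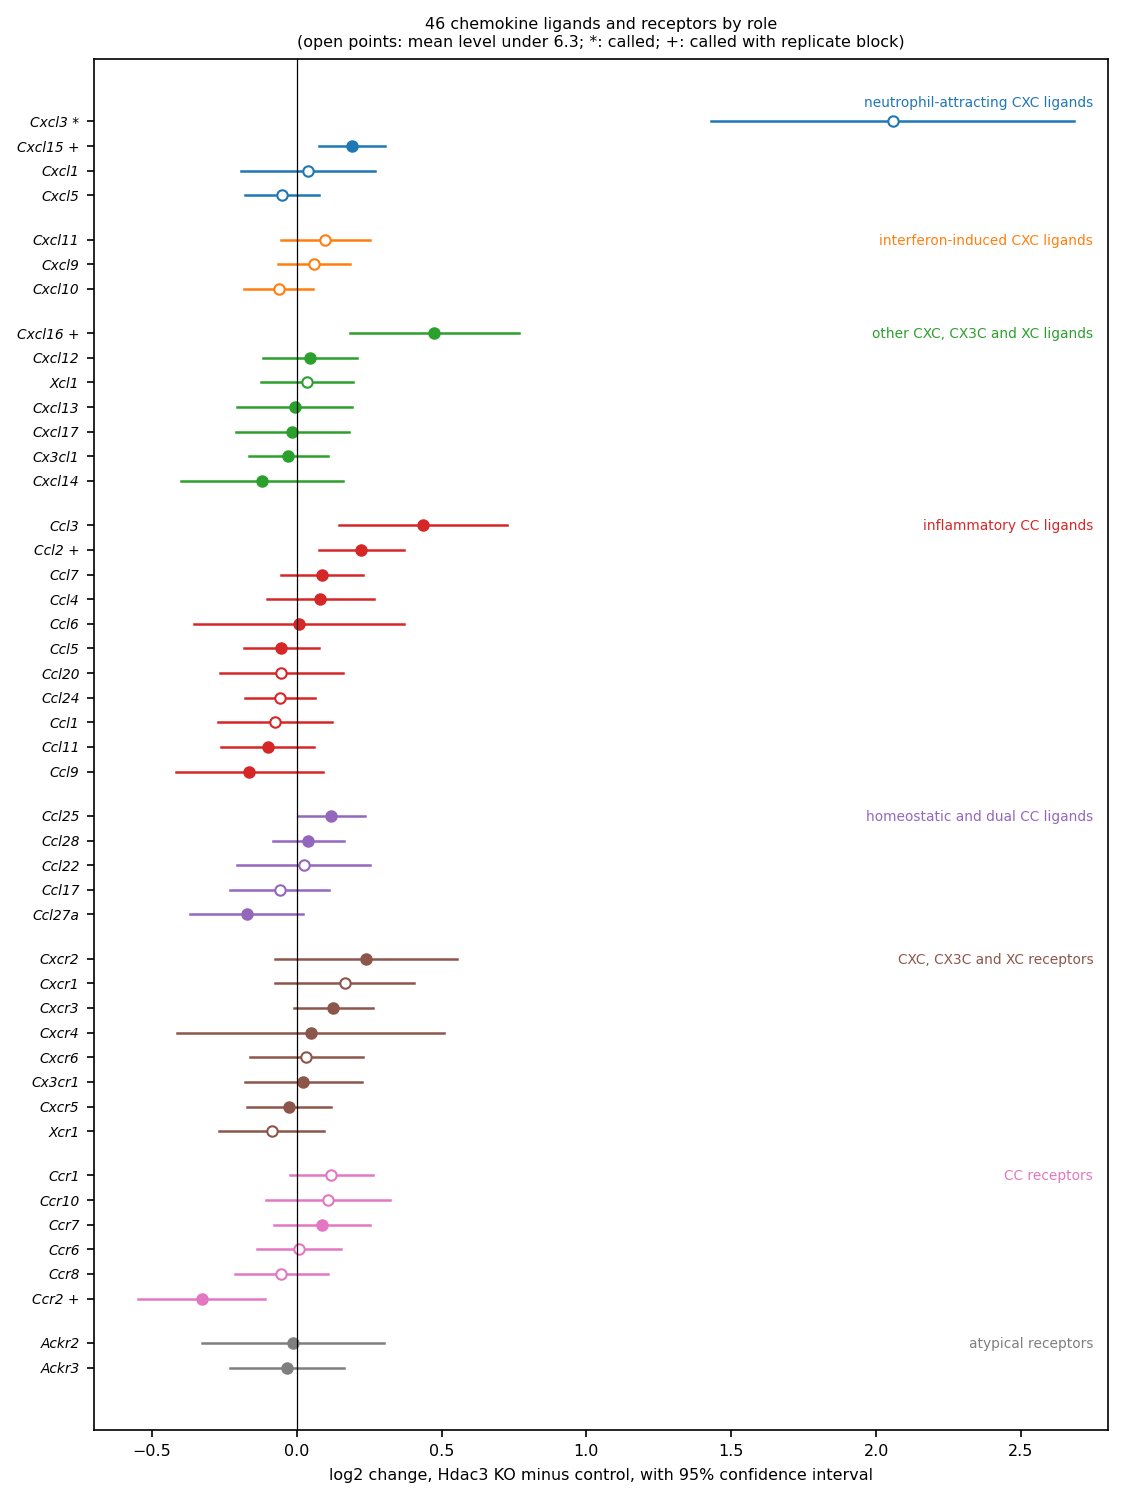
Log2 change (knockout minus control) of each of the 46 members with its 95% confidence interval from limma, grouped by role; open points have a mean level under 6.3, an asterisk marks a call and a plus sign a call made with the replicate block. Cxcl3 stands at 2.06, while the other members lie between -0.33 and 0.47.

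The 4 neutrophil-attracting CXC ligands among the members share one stretch of chromosome 5, and Cxcl1, Cxcl3 and Cxcl5 act through Cxcr2. Cxcl3 had levels of 5.67, 6.24, 5.98, 7.53 and 6.84 in knockout lungs, against 4.52, 4.59, 4.47, 3.96 and 4.44 in control lungs. Every knockout lung lay above every control lung, and knockouts 4 and 5 were the only lungs above 6.3. The means were 6.45 ± 0.74 in knockout lungs and 4.40 ± 0.25 in control lungs (SD, n = 5 each). The log2 change was 2.06 ± 0.29 (SE) (limma adjusted p = 0.00172, exact permutation p = 0.00794, the smallest that groups of 5 can give). All control values lay under 6.3, and with values floored there the log2 change was 0.36 and Cxcl3 was not called (adjusted p = 0.655). The change was 1.43 among numbers 1 to 3 (adjusted p = 0.00141) and 2.99 among numbers 4 and 5 (adjusted p = 0.0558).

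Cxcl15, or lungkine, is a chemokine that mouse lung epithelium makes and secretes into the airways. Its levels were 13.07, 13.03, 13.02, 13.14 and 12.90 in knockout lungs, against 12.87, 12.85, 12.78, 12.91 and 12.80 in control lungs. The groups overlapped through knockout 5 and control 4, and the knockout lung was the higher in 5 of 5 same-numbered pairs. The log2 change was 0.19 ± 0.05 (SE), or 114% of the control level. It was not called by limma (adjusted p = 0.0807; exact permutation p = 0.0159), and it was called with the replicate block (adjusted p = 0.046).

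Cxcl1 and Cxcl5, the other members known to bind Cxcr2, had low levels in both groups. Cxcl1, whose promoter carries the same motif match as that of Cxcl3, ranged from 5.38 to 5.96 in knockout lungs and from 5.50 to 5.90 in control lungs. Its log2 change was 0.04, with a 95% interval from -0.19 to 0.27 (adjusted p = 0.936). Cxcl5 had a log2 change of -0.05 and an interval from -0.18 to 0.08 (adjusted p = 0.799). Both rows have means under 6.3. Cxcr2 itself had levels of 8.02, 8.08, 7.83, 8.63 and 7.99 in knockout lungs, against 8.10, 7.70, 8.07, 7.90 and 7.58 in control lungs. These overlapped widely, with a log2 change of 0.24 and an interval from -0.07 to 0.55 (adjusted p = 0.539).

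**Figure D2:**
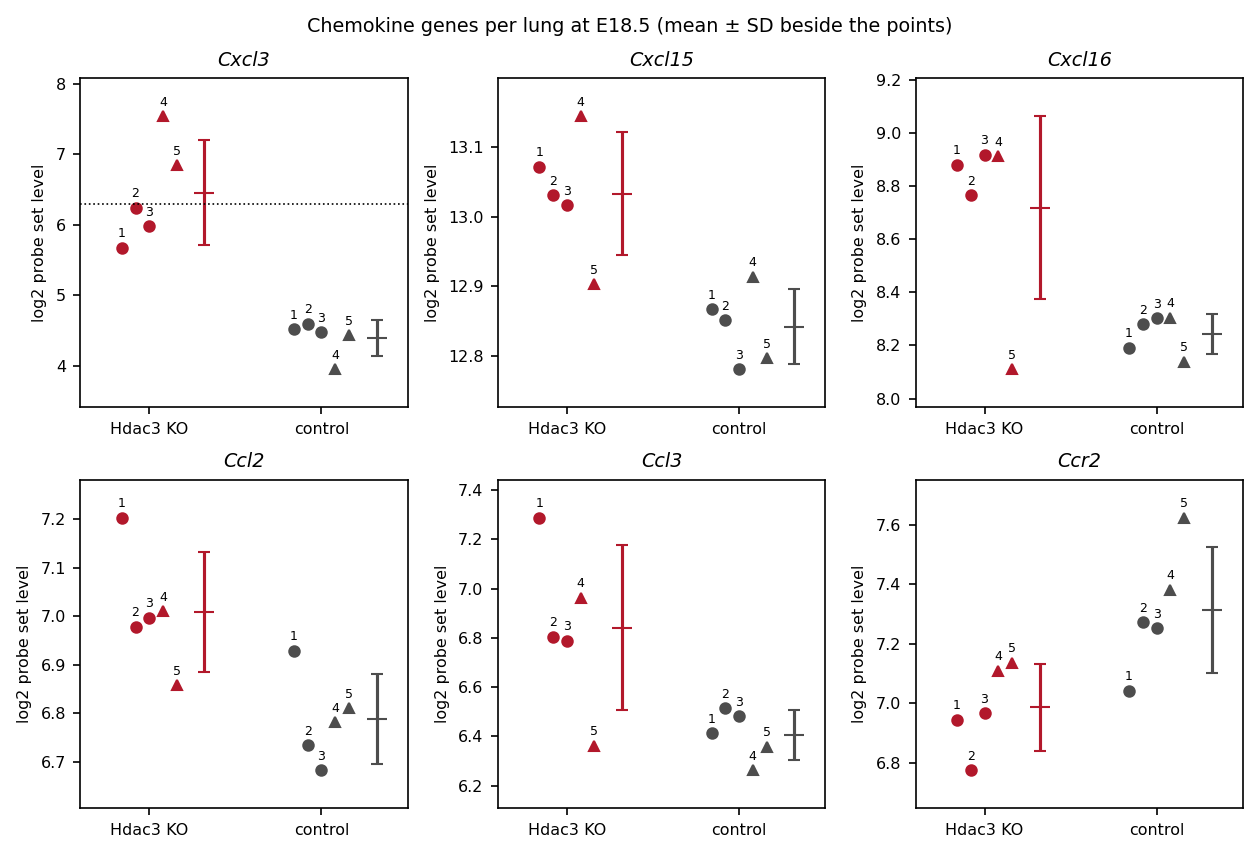
Log2 probe set level of 6 chemokine genes in each lung, knockout on the left of each panel and control on the right; numbers are replicate numbers, circles are numbers 1 to 3, triangles are numbers 4 and 5, and bars show the mean ± SD. The 5 knockout lungs sit above the 5 control lungs for Cxcl3, and knockout 5 sits below the controls for Cxcl16 and among them for Ccl3; the dotted line marks 6.3.

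Neutrophil markers were read beside these genes. Limma called 0 of 11 measured neutrophil markers, and the unadjusted p was under 0.05 for 2. These 2 were called higher with the replicate block, Ltf (lactoferrin of neutrophil granules) and Csf3r (the receptor for G-CSF). Of all genes, 2.28% were called higher with the block. Ltf ranged from 8.25 to 9.89 in knockout lungs and from 7.68 to 8.16 in control lungs (log2 change 0.95, adjusted p = 0.0823, and 0.0361 with the block), and its groups did not overlap. All knockout lungs lay above all control lungs for 2.44% of all genes. For Csf3r the log2 change was 0.34 (adjusted p = 0.188; block 0.0163). The mean of the 11 markers ranged from 6.90 to 7.46 in knockout lungs and from 6.64 to 7.12 in control lungs, and 3 of the 11 had means under 6.3, Mpo, Camp and Fcnb. Ngp and Elane, also of neutrophil granules, had log2 changes of -0.01 and 0.01. The part of neutrophil number in the Cxcl3 difference was not tested.

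None of the measured neighbours of Cxcl3 on the chromosome was called by limma. In the gene order Cxcl5, Ppbp, Pf4, Cxcl3, Cxcl15, Cxcl1, the platelet chemokine genes Ppbp and Pf4 had log2 changes of -0.05 ± 0.21 and 0.17 ± 0.09 (SE) (adjusted p = 0.959 and 0.481). Cxcl15 followed Cxcl3 with 0.19 and Cxcl1 with 0.04. Among the genes on either side of the group, Rassf6 had 0.18 (adjusted p = 0.441) and Mthfd2l had -0.02 (adjusted p = 0.933).

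The interferon-induced ligands Cxcl9 and Cxcl10, which call in T cells through Cxcr3, and Cxcl11, listed as a transcribed pseudogene, were low in both groups. None of the 3 was called by limma, and none had an unadjusted p under 0.05. Their log2 changes were 0.06, -0.06 and 0.10, and their intervals lay within -0.18 and 0.25. Their levels lay between 5.31 and 5.84 in knockout lungs, and between 5.24 and 5.75 in control lungs.

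Cxcl16, a membrane-anchored chemokine that is the ligand of Cxcr6, was higher in 4 of 5 knockout lungs. Its levels were 8.88, 8.77, 8.92, 8.91 and 8.11 in knockout lungs, against 8.19, 8.28, 8.30, 8.30 and 8.14 in control lungs. Knockouts 1 to 4 lay above all control lungs and knockout 5 lay below them all. The log2 change was 0.47 ± 0.13 (SE, adjusted p = 0.0891; exact permutation p = 0.0476). It was called with the replicate block (adjusted p = 0.0326), and without knockout 5 the change was 0.63 (adjusted p = 0.000101). Within numbers 1 to 3 it was 0.60 (adjusted p = 0.0028) and within numbers 4 and 5 it was 0.29 (adjusted p = 0.806). Its receptor Cxcr6 was low and had a log2 change of 0.03 (adjusted p = 0.935). Knockout 5 also had the lowest mean of the AT2 markers (11.84) and of the macrophage and monocyte markers (7.93) among the 10 lungs. The same lung was lowest for endothelial (10.92), lymphatic endothelial (8.47), mesothelial (8.88) and platelet (7.71) markers. It was not the lowest for the other cell type lists. The part of these low marker levels in the Cxcl16 value was not tested.

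The remaining CXC, CX3C and XC ligands did not pass the test. Cxcl12, which guides progenitors and endothelial cells through Cxcr4, had levels of 9.48, 9.29, 9.37, 9.60 and 9.56 in knockout lungs, against 9.28, 9.39, 9.43, 9.60 and 9.37 in control lungs. The groups overlapped over most of their range, and the interval of its log2 change ran from -0.12 to 0.21. Cxcl14, which epithelial and mesenchymal cells make, had levels of 8.52, 8.68, 8.72, 8.56 and 9.06 in knockout lungs, against 8.76, 8.54, 8.92, 8.69 and 9.23 in control lungs (log2 change -0.12, adjusted p = 0.778). Lung 5 was the highest of each group. Cxcl13, Cxcl17, Cx3cl1 and Xcl1 had log2 changes from -0.03 to 0.04.

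Limma called 0 of 11 inflammatory CC ligands, and the unadjusted p was under 0.05 for 2, Ccl2 and Ccl3. Ccl2 draws monocytes out of the blood through Ccr2. Its levels were 7.20, 6.98, 7.00, 7.01 and 6.86 in knockout lungs, against 6.93, 6.73, 6.68, 6.78 and 6.81 in control lungs. The groups overlapped through knockout 5 and control 1, and the knockout lung was higher in 5 of 5 same-numbered pairs, by 0.05 to 0.31. The log2 change was 0.22 ± 0.07 (SE, adjusted p = 0.119; exact permutation p = 0.0159), called with the replicate block (adjusted p = 0.0491).

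Ccl3, an inflammatory chemokine of macrophages, had levels of 7.29, 6.81, 6.79, 6.96 and 6.36 in knockout lungs, against 6.41, 6.52, 6.48, 6.26 and 6.36 in control lungs. Knockouts 1 to 4 lay above all control lungs and knockout 5 among them. The log2 change was 0.44 ± 0.13 (SE, adjusted p = 0.12, and 0.0786 with the replicate block). Without knockout 5 it was 0.56 and was called (adjusted p = 0.00935). Ccl4, the neighbour of Ccl3 on chromosome 11 and a related ligand, had a log2 change of 0.08 with an interval from -0.10 to 0.26 (adjusted p = 0.772). Wfdc17, which lies next to Ccl4 and is outside the naming rule, had a log2 change of 0.26. It was not called by limma (adjusted p = 0.186) and was called with the replicate block (adjusted p = 0.0284).

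Among the other inflammatory CC ligands the log2 changes ran from -0.16 for Ccl9, a myeloid chemokine, to 0.09 for Ccl7, a monocyte chemokine beside Ccl2. Ccl11, the eosinophil chemokine eotaxin, had levels of 7.90, 7.96, 8.23, 7.87 and 8.21 in knockout lungs, against 8.16, 8.15, 8.16, 8.08 and 8.12 in control lungs. The knockout lungs spread on both sides of the control lungs (log2 change -0.10, adjusted p = 0.642). Ccl6, a myeloid chemokine, spread from 6.22 to 7.34 in knockout lungs and from 6.57 to 7.06 in control lungs, with a log2 change of 0.01. Ccl1, Ccl20 and Ccl24 had means under 6.3.

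**Figure D3:**
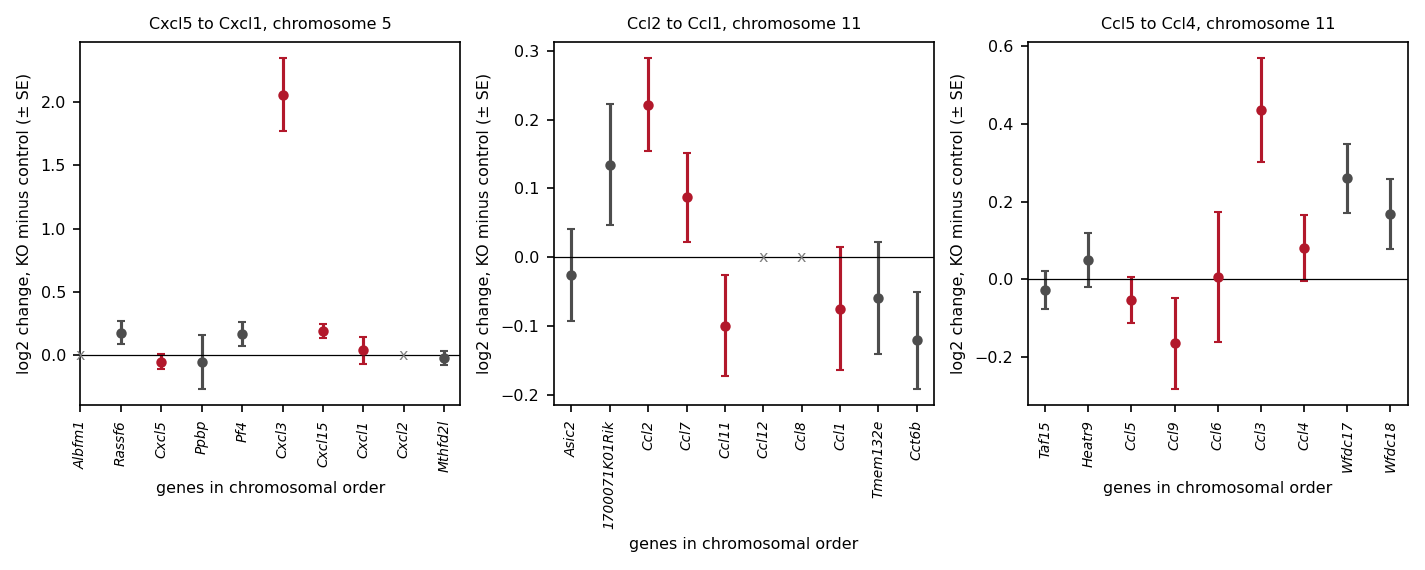
Log2 change (knockout minus control) ± SE for the genes of 3 chemokine clusters and their flanking genes, in chromosomal order; red points are members, grey points other genes, and an x marks a gene not analysed here. The y axes differ: Cxcl3 at 2.06 stands alone on chromosome 5, and on chromosome 11 Ccl2 (0.22) and Ccl3 (0.44) are the highest points of their clusters.

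Limma called 0 of 5 homeostatic CC ligands, and the unadjusted p was under 0.05 for 1. This was Ccl25, a thymic and gut chemokine, with levels of 7.60, 7.55, 7.53, 7.75 and 7.62 in knockout lungs, against 7.53, 7.42, 7.57, 7.47 and 7.46 in control lungs (log2 change 0.12, adjusted p = 0.352, and 0.31 with the block). The groups overlapped. Ccl27a, a chemokine known from skin, had levels of 8.04, 7.87, 7.92, 7.74 and 8.22 in knockout lungs, against 8.07, 7.99, 8.14, 8.10 and 8.34 in control lungs. It was lower in 5 of 5 same-numbered pairs but was not called (log2 change -0.17, adjusted p = 0.447, and 0.142 with the block). A second, dimmer Ccl27a probe set gave 0.12 (adjusted p = 0.693), so the probe sets of this gene disagreed in sign. Over 11 probe sets shared by Ccl27 genes and other names, the differences between group means ran from -0.33 to -0.07, and they were not tested. Shared probe sets of Ccl21, the chemokine of lymphatic endothelium, differed by 0.01 to 0.03 over 9 probe sets, and those of Ccl19 by -0.09 to -0.03 over 13. Some of these rows repeat the values of another exactly (2 of the Ccl27 rows, 4 of the Ccl21 rows and 4 of the Ccl19 rows), so they are not all separate measurements.

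Limma called 0 of 16 receptors, and the unadjusted p was under 0.05 for 1, Ccr2. Ccr2, the receptor by which inflammatory monocytes follow Ccl2, had levels of 6.94, 6.78, 6.97, 7.11 and 7.14 in knockout lungs, against 7.04, 7.27, 7.25, 7.38 and 7.62 in control lungs. The groups overlapped through control 1, and the knockout lung was lower in 5 of 5 same-numbered pairs, by 0.10 to 0.50. The log2 change was -0.33 ± 0.10 (SE), or 79.7% of the control level (adjusted p = 0.124; exact permutation p = 0.0238). It was called with the replicate block (adjusted p = 0.0282). That Ccl2 and Ccr2, ligand and receptor, differed in opposite directions in 5 of 5 pairs follows from their separate counts. It is no further result, neither gene was called without the block, and the labels give no pairs.

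Limma called 0 of 12 macrophage and monocyte markers, and the unadjusted p was under 0.05 for 2. With the block 1 was called lower, the Fc receptor gene Fcgr1 (log2 change -0.23, adjusted p = 0.185, and 0.0249 with the block). Of all genes, 2.44% were called lower with the block. The mean of the 12 markers ranged from 7.93 to 8.12 in knockout lungs and from 8.06 to 8.14 in control lungs. Ccr1, on monocytes and macrophages, had a mean under 6.3 and a log2 change of 0.12 (adjusted p = 0.487). Cx3cr1, the fractalkine receptor of monocytes and macrophages, ranged from 7.93 to 8.20 in knockout lungs and from 7.82 to 8.26 in control lungs (log2 change 0.02, interval from -0.18 to 0.23). The groups overlapped. The part of monocyte number in the Ccr2 difference was not tested.

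**Figure D4:**
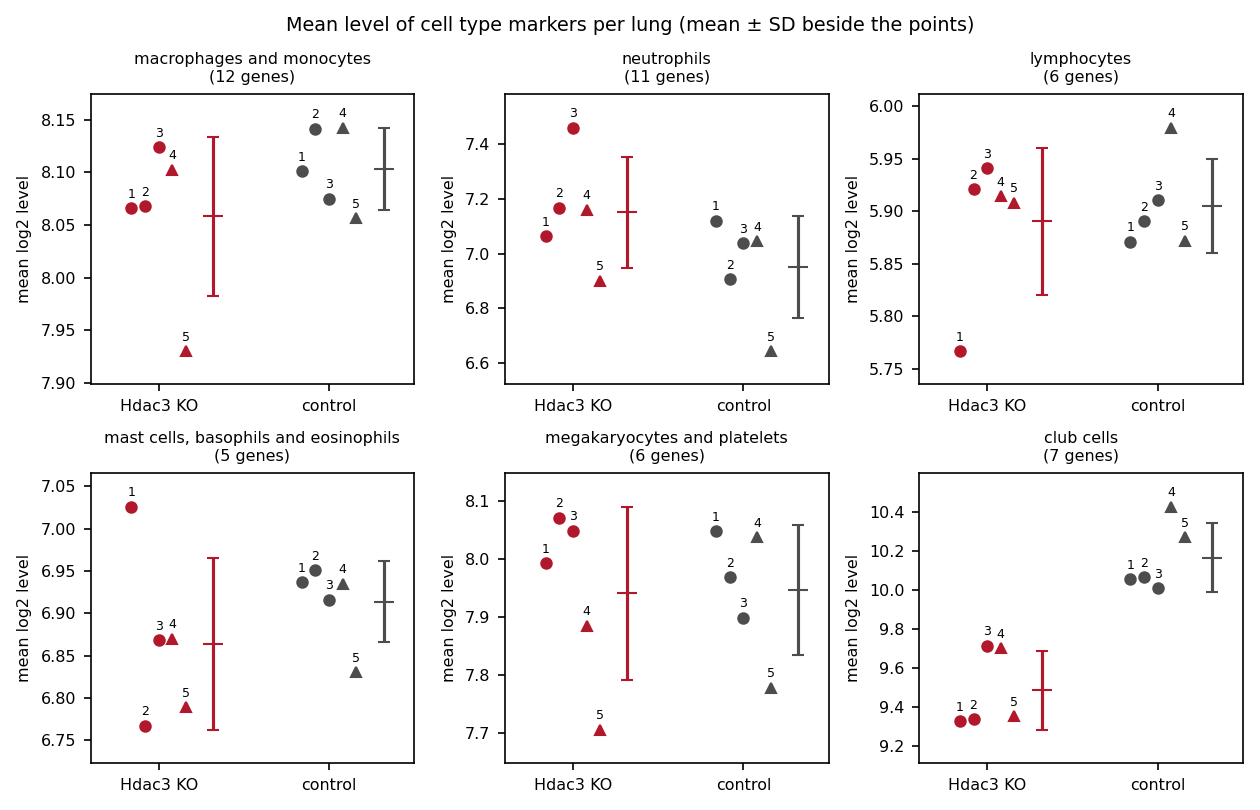
Mean log2 level of cell type markers in each lung, knockout on the left and control on the right of each panel, with replicate numbers and mean ± SD. The leukocyte and platelet lists overlap between groups, with knockout 5 and control 5 the lowest of their groups for neutrophil, macrophage and platelet markers, while the 7 club cell markers lie from 9.33 to 9.71 in knockout lungs and from 10.01 to 10.43 in control lungs.

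Cxcr4, the Cxcl12 receptor, had levels of 8.75, 9.22, 8.95, 9.52 and 9.46 in knockout lungs, against 8.63, 9.15, 8.70, 9.65 and 9.53 in control lungs. Lungs 4 and 5 lay above lungs 1 to 3 in both groups, and knockout and control overlapped. Its log2 change was 0.05 with an interval from -0.41 to 0.51. The standard error was 0.21, and 0.06 with the replicate block. Ccr2, Cx3cr1 and Ccl4 were also higher in lungs 4 and 5 than in lungs 1 to 3 within each group. Over all genes, a principal component with 22.1% of the variance separated lungs 4 and 5 from lungs 1 to 3 within each group. No label says what a replicate number shares.

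The atypical receptors did not pass the test. Ackr3, which scavenges Cxcl12, had levels of 8.44, 8.49, 8.43, 8.10 and 8.55 in knockout lungs, against 8.63, 8.35, 8.51, 8.25 and 8.44 in control lungs, and lung 4 was the lowest of each group. Ackr2, which removes inflammatory CC chemokines, had levels of 8.79, 8.67, 8.67, 9.22 and 8.76 in knockout lungs, against 8.55, 8.62, 8.88, 9.33 and 8.80 in control lungs, and lung 4 was the highest of each group. Their log2 changes were -0.03 and -0.01, with intervals from -0.23 to 0.16 and from -0.33 to 0.30. Ccr7, which brings dendritic cells and lymphocytes to lymphatic vessels, had levels of 7.20, 7.26, 7.24, 7.34 and 7.35 in knockout lungs, against 7.08, 6.97, 7.30, 7.20 and 7.40 in control lungs (log2 change 0.09, adjusted p = 0.711). Cxcr3, which T cells use to sense Cxcl9 and Cxcl10, had a log2 change of 0.13 (adjusted p = 0.417). The other receptors (Ccr6, Ccr8, Ccr10, Cxcr1, Cxcr5, Cxcr6 and Xcr1) had log2 changes from -0.09 to 0.17.

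Genes that act before and after chemokines were read from lists. Of 70 such genes measured, 2 were called by limma, Il18 lower and Sdc1 higher. With the replicate block 6 were called, 3 higher and 3 lower, and 2.28% of all genes were then called higher and 2.44% lower (1.54% and 1.58% without the block).

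Of 13 cytokines that induce chemokines or act with them, 1 fell and 0 rose. Il18, an inflammasome cytokine that epithelium and macrophages make, had levels of 6.28, 6.49, 6.18, 6.10 and 6.39 in knockout lungs, against 6.69, 6.91, 6.62, 6.64 and 6.65 in control lungs. The groups did not overlap (log2 change -0.42 ± 0.08 SE, adjusted p = 0.0146). Il1b, a strong inducer of neutrophil chemokines, had levels of 5.54, 5.60, 6.11, 6.24 and 5.38 in knockout lungs, against 5.15, 5.13, 5.48, 5.60 and 5.10 in control lungs. All are under 6.3, and the change of 0.48 was called with the block (adjusted p = 0.188, and 0.00429 with the block).

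Among 20 NF-kB and toll-like receptor genes limma made 0 calls, and the unadjusted p was under 0.05 for 5. With the block 1 was higher and 1 lower. The higher gene was Bcl3, a nuclear cofactor of NF-kB (log2 change 0.38, adjusted p = 0.215; block 0.0225), and the lower one Traf1, an adaptor of TNF receptors (log2 change -0.57, adjusted p = 0.126; block 0.00341). Among 9 interferon response genes limma made 0 calls, with or without the block, and the unadjusted p was under 0.05 for 1, Irf1 (log2 change 0.23, adjusted p = 0.123). The Irf1 groups did not overlap, and it was called with lungs 1 to 3 against lungs 4 and 5 as a block (adjusted p = 0.0324). Among 16 genes that carry the receptor signal limma made 0 calls, and the unadjusted p was under 0.05 for 4. With the block Plcb2, a phospholipase of leukocytes, was lower (log2 change -0.24, adjusted p = 0.182, and 0.0392 with the block).

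Of 12 chemokine-related genes outside the naming rule 1 rose. Sdc1, an epithelial heparan sulfate proteoglycan that binds chemokines at the cell surface, had levels of 10.06, 10.30, 10.27, 10.05 and 9.95 in knockout lungs, against 9.83, 9.88, 9.77, 9.71 and 9.76 in control lungs. It rose by 0.34 ± 0.07 (SE, adjusted p = 0.0211), and the groups did not overlap.

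Among epithelial markers, which mark the cells that lose Hdac3, 4 of 7 club cell markers fell (Chad by 1.26, Gabrp by 1.13, Scgb3a2 by 1.06 and Aldh1a7 by 0.58) and 1 of 9 AT2 markers rose (Etv5, by 0.61). Of 6 ciliated cell markers 4 fell, the cilium genes Dnah9, Dnah11 and Dnaic2 and the regulator Myb, and of 7 AT1 markers 1 fell, Pdpn. Of all genes, 1.54% were called higher and 1.58% lower. The unadjusted p was under 0.05 for 3 AT2 and 3 AT1 markers. The AT2 markers had log2 changes from -0.48 to 0.61, and the AT1 markers from -0.52 to 0.47. The part of epithelial cell makeup in the Cxcl15 and Cxcl16 values was not tested. Of the non-epithelial lists, 1 of 5 mesothelial markers rose (Msln), and limma made 0 calls among 7 endothelial, 5 lymphatic, 7 fibroblast and 6 smooth muscle markers (1 smooth muscle marker and 0 of the others at an unadjusted p under 0.05). With the block Car4 (endothelium) and Rtkn2 (AT1) were called higher, and Cnn1 (smooth muscle) and Upk3b (mesothelium) lower. Of all genes, 2.28% were then called higher and 2.44% lower. Slc4a1, the 1 erythroid marker measured, was also called higher with the block. Cxcl17, a chemokine of mucosal and airway epithelium, had a log2 change of -0.02 with an interval from -0.21 to 0.18 beside this. Lymphocyte markers were low, with 5 of 6 measured ones under 6.3 in mean and 0 calls by limma (0 at an unadjusted p under 0.05). Mast cell, basophil and eosinophil markers (5 measured) and platelet markers (6 measured) likewise gave 0 calls by limma and 0 at an unadjusted p under 0.05.

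**Figure D5:**
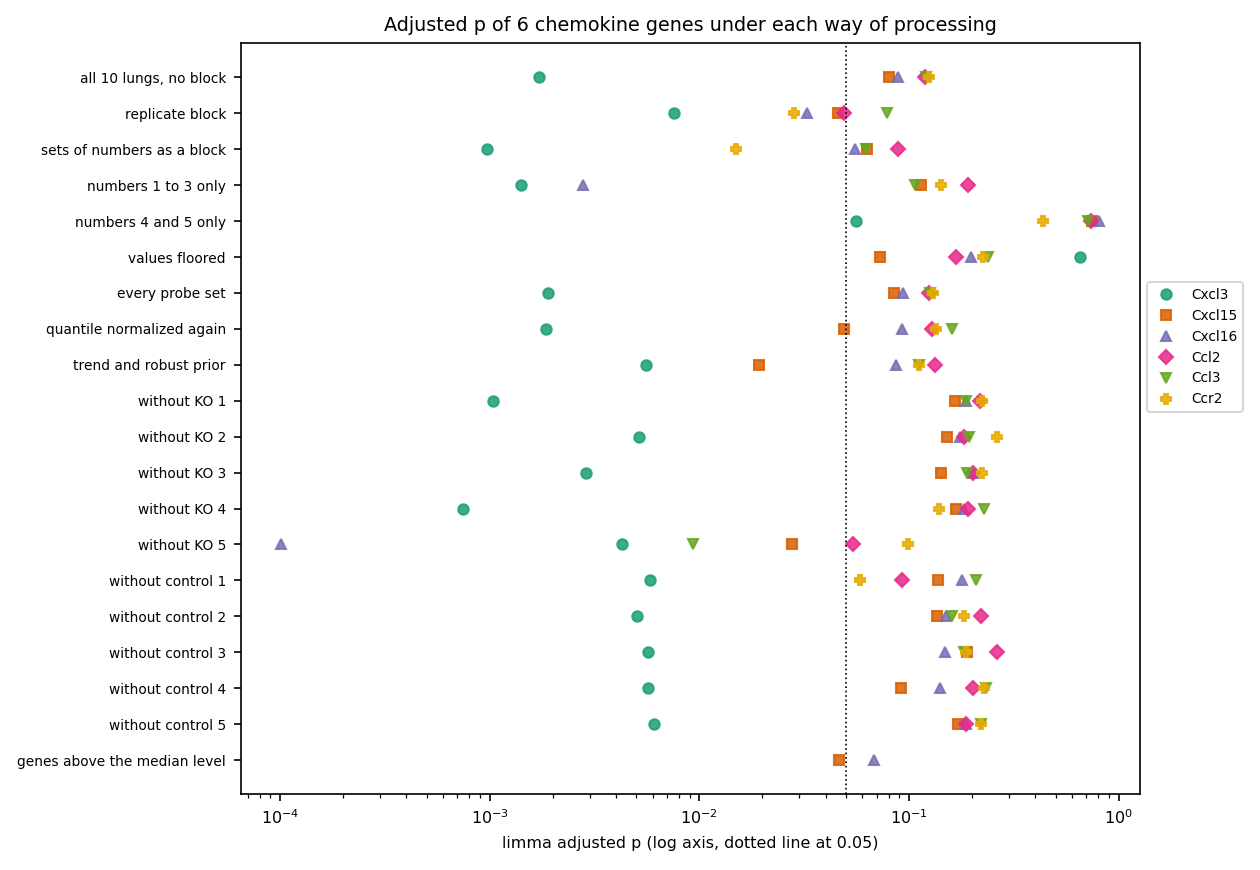
Limma adjusted p (log axis) of 6 chemokine genes under each way of processing, with the dotted line at 0.05. Cxcl3 lies left of the line except with values floored and with numbers 4 and 5 only, and is not among the genes above the median level; the other 5 genes cross it under some settings, among them the replicate block for 4 of them.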

How the data were processed

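Lungs of 10 embryos (5 knockout, 5 control) were each profiled on 1 array. The deposited values are log2 probe set levels. Per the submitters' processing notes the authors used oligo, RMA and limma; for versions, build and row filters the sources used here give nothing. A poly(T) primer started the amplification of 100 ng of RNA, per the labels' protocols. The table holds 24888 probe sets, from 3.53 to 13.61, with sample medians from 7.43 to 7.46 and correlations between samples from 0.984 to 0.995. Of these, 18922 carry 1 gene symbol, 1343 several and 4623 none.

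Knockout was compared with control by limma 3.58.1 (lmFit and eBayes, two-sided) over 17919 genes, and a gene was called where its Benjamini-Hochberg adjusted p was under 0.05. This fit was tested on simulated data with independent noise per gene and lung, and the outcome is not given here. The simulation held no deviations shared by replicate number, so it cannot speak to those. Exact permutation tests are two-sided and unadjusted. The labels call the lungs biological replicates; their number limits the precision (median SE 0.07). Among the lungs 0 pairs held identical values. Same-numbered lungs correlated at 0.154 to 0.485 in their deviations from the group means (other pairs: median -0.08, highest 0.33). The replicate numbers come from the labels, which do not say that a number pairs lungs. Reading them as pairs rests on these correlations, which overlap with those of other pairs. Members, lists and the rule for naming genes were chosen with earlier results of these data known. All lungs' values are given for members called with or without the block, those with an unadjusted p under 0.05, and the 6 ligands and 6 receptors with the highest means (Cx3cr1 by its range). Of companion and marker lists, genes called without the block are named, as are those called with it. Irf1, Ngp, Elane, Rassf6, Mthfd2l, Ppbp, Pf4 and Wfdc17 were added after their values were seen. So were Ccl4, Ccl6, Ccl7, Ccl9, Ccr1, Cxcl1, Cxcl5, Cxcl17, Cxcr3 and Cxcr6 as examples of their roles. Alternatives were the replicate block, lungs 1 to 3 against 4 and 5 as a block or alone, values floored at 6.3, genes above the median level, every probe set, a repeated quantile normalization, a trended robust prior and each lung left out.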

Additional observations from a re-analysis of the deposited data

Results flagged for a closer look

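A lung far from the other 4 of its group was looked for in 94 groups of values (46 members and Hdac3, 2 groups each), and 7 were found; chance gives about 1 in 20. Cxcl16 stood at 8.11 in knockout 5, against 8.77 to 8.92 in the other knockout lungs. Ackr2 stood at 9.22 in knockout 4, against 8.67 to 8.79, and Ackr3 at 8.10 in the same lung, against 8.43 to 8.55. Cxcl13 stood at 8.18 in knockout 3, against 7.87 to 7.96, and Xcr1 at 5.79 in knockout 1, against 5.94 to 5.98. Among control lungs, Cxcl3 stood at 3.96 in control 4, against 4.44 to 4.59, and Cxcl5 at 5.72 in control 1, against 5.90 to 5.93. The Cxcl3, Cxcl5 and Xcr1 rows have means under 6.3.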

How the results depend on the processing

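Cxcl3, Cxcl15, Cxcl16, Ccl2, Ccl3, Ccl25 and Ccr2 kept their direction under each alternative run that tested them; Cxcl3 was not tested among genes above the median level. The replicate block changed no other member's call. The number of called chemokine members was 1 by limma and 5 with the replicate block. It was 2 with lungs 1 to 3 against 4 and 5 as a block and 2 with lungs 1 to 3 alone. After quantile normalization and with the trended robust prior it was 2, Cxcl3 and Cxcl15 (limma adjusted p of Cxcl15 0.0491 and 0.0193). Among the 12 members above the median level it was 1, Cxcl15. With a lung left out it was 1 to 4, the highest without knockout 5 (Ccl3, Cxcl15, Cxcl16 and Cxcl3). It was 0 with lungs 4 and 5 alone and 0 with values floored (6 members at an unadjusted p under 0.05 in each). The log2 change of Cxcl3 was 2.99 with lungs 4 and 5 alone and 0.36 with values floored, both not called, and 1.79 to 2.25 with a lung left out, where it was called each time (adjusted p from 0.000742 to 0.00611). Hdac3 was not called with lungs 1 to 3 alone (-0.26) or 4 and 5 alone (-0.40), and ranged from -0.35 to -0.28 with a lung left out. Of all genes, 559 were called by limma, 846 with the replicate block, 910 with the sets as a block, 2 with lungs 4 and 5 alone and 393 to 699 with a lung left out. Of the companion genes 2 were called, and 6 with the replicate block, 4 with the sets as a block, 1 among genes above the median level, 0 with lungs 4 and 5 alone (9 at an unadjusted p under 0.05) and 1 to 3 with a lung left out; without control 3, control 4 or control 5 the count was 1. The runs with lungs 4 and 5 alone, with lungs 1 to 3 alone and with a lung left out hold fewer samples. Il18, with a mean of 6.49, lies under the median level of all genes (7.81) and was not tested among genes above it. Flooring raised all control values of Cxcl3 to 6.3, and also those of knockouts 1 to 3, so the floored change rests on knockouts 4 and 5. The causes of the differences between runs were not tested. The low rows limit what the array can show of Cxcl3.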
